A study of Mus musculus with 23 samples.

Results

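Carbonic anhydrases are zinc enzymes that interconvert carbon dioxide and bicarbonate. Car1 and Car2 are the cytosolic forms of the red cell, where the bicarbonate they make leaves through the anion exchanger band 3, encoded by Slc4a1, and Car2 also serves acid secretion in osteoclasts and kidney. Car1 is known in mice as a gene of early erythroid progenitors, while Slc4a1 and the globins rise as erythroblasts mature. These 2 genes, of 23536 gene rows in the deposited table, were taken by their names and are described over all cells with at least 1000 transcripts, beside Slc4a1 and the share of a cell's transcripts that came from globin genes. They were chosen by their measured levels in micro-dissected against sorted cells and by how these moved with Slc4a1 and globin, so those values are given as a description with no test, and tests were run only on clump membership, which the choice did not use.

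The cells came from mouse bone marrow and were measured with CEL-seq, which tags each captured mRNA molecule at its 3′ end, so levels need no correction for gene length. Micro-dissected cells were taken by hand from small attached groups, here called clumps, after mild flushing of the marrow, and sorted haematopoietic stem cells (HSC) were single cells of the phenotype Lineage- Kit+ Sca1+ CD150+ CD48-. The labels give no strain, age, genotype or number of animals for either group, so replicates are libraries and their spread may be technical. The table held 17 of 18 micro-dissected libraries, with 707 kept cells of 1546 wells and a median of 2272 transcripts per cell, and 4 of 5 sorted libraries, with 245 kept cells of 369 wells and a median of 1926 transcripts. Transcripts summed over kept cells were 9032 to 313488 per micro-dissected library and 3119 to 238770 per sorted library, and sorted HSC replicate 1 held only 2 kept cells. Of the fixed HSC markers, Hlf had 8.09 CPM (transcripts of the gene per 1000000 transcripts) in micro-dissected cells and 679 CPM in sorted cells, Kit 50.6 and 486 CPM, and Procr 0 and 106 CPM, so the sorted cells carried the markers of their label, while Slamf1, which encodes CD150, differed little at 40.1 and 44.6 CPM.

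Car1 was present in every micro-dissected library and was not detected in sorted HSC. Over 17 micro-dissected libraries its level had a lowest value of 166 CPM, a median of 428 CPM and a highest of 2162 CPM, with a mean of 551 ± 480 CPM (SD). In sorted HSC replicates 1, 3, 4 and 5 it was 0 CPM. No sorted library overlapped the micro-dissected range. In sorted HSC replicate 1, with 2 kept cells, 1 transcript would have been 321 CPM, so its 0 cannot set it apart from that range. In all, Car1 had 1015 transcripts in 174 of 707 micro-dissected cells (24.6%) and 0 transcripts in 0 of 245 sorted cells, and it also had 0 in the 124 sorted wells that fell below 1000 transcripts. Set against a floor of 3 transcripts over the whole sorted group, the pooled level in micro-dissected cells was 73.6-fold higher. Set against the exact upper limit of 0 transcripts, which is higher than that floor, it was 59.9-fold higher. Micro-dissected replicate 7 was the highest library, with 130 Car1 transcripts in 9 of 22 cells.

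Car2 was found in both groups, and their libraries overlapped. Its micro-dissected libraries had a lowest value of 458 CPM, a median of 1872 CPM and a highest of 5054 CPM, with a mean of 2176 ± 1187 CPM (SD, n = 17). Sorted HSC replicates 1, 3, 4 and 5 had 321, 1163, 428 and 1302 CPM, a mean of 804 ± 500 CPM (SD, n = 4), of which the first rests on 1 transcript. Pooled over cells, Car2 stood at 2164 CPM in micro-dissected and 1045 CPM in sorted cells, a ratio of 2.07 with a counting interval of 1.91 to 2.25. The 2 highest sorted libraries lay within the lower part of the micro-dissected range and the 2 others below its minimum. The ratio was 3.004 as a mean over cells and 1.59 with a minimum of 2000 transcripts per cell. Car2 ranked 39 of all gene rows by transcripts in micro-dissected cells and 113 in sorted cells, while Car1 ranked 318 in micro-dissected cells.

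**Figure D1:**
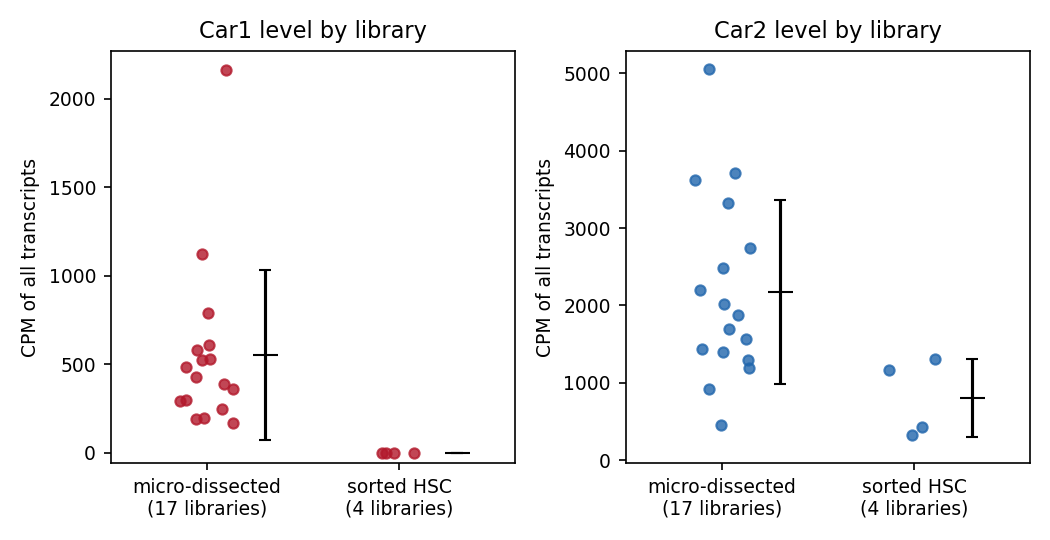
Level of Car1 (left) and Car2 (right) in each library, in CPM of all transcripts summed over kept cells. Points are libraries, 17 micro-dissected and 4 sorted HSC, and the bar to the right of each group is the mean with 1 SD. Car1 lay between 166 and 2162 CPM in micro-dissected libraries and at 0 in every sorted library, while the sorted Car2 values of 321 to 1302 CPM overlapped the micro-dissected ones.

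In sorted HSC, Car2 was not accompanied by Slc4a1 or globin at a like level. Slc4a1 had 2960 transcripts in micro-dissected and 1 in sorted cells, beside 5368 and 564 transcripts of Car2. Of 16 erythroblast markers other than globins, 4 were at 0 in sorted cells, Klf1 and Ermap among them, while low counts of others, such as Fech (25 transcripts), were found. Their summed level was 1565 to 13364 CPM in micro-dissected libraries and 0 to 350.1 CPM in sorted libraries. The globin share reached at most 47.8% in a micro-dissected cell and 0.287% in a sorted cell. In sorted cells Car2 counts were 0 in 63 cells, 1 tag in 54, 2 to 5 tags in 108 and 6 or more in 20, with at most 20 tags in a cell. Most sorted cells thus had some Car2 and few had much. After each cell was thinned to 1000 tags, Car2 was found in 344 of 681 micro-dissected cells (50.5%, exact binomial interval 46.7 to 54.3%) and in 132 of 245 sorted cells (53.9%, 47.4 to 60.2%). Unthinned, the shares were 64.4 and 74.3%. Promyelocyte-like cells of the clumps, neutrophil precursors taken as cells that should lack red cell genes, had a thinned share of 10.3% (4.24 to 20.1%) at a median depth of 5702 transcripts, against 1926 in sorted HSC, although in other libraries. Thinned shares in sorted replicates 3, 4 and 5 were 58.2, 38.9 and 62.5%, each above the promyelocyte-like share, which was the lowest of the granulocytic classes. Eosinophil-like cells had 17.02% (7.65 to 30.8%), myelocyte-like cells 26.1% (19.1 to 34.1%), mature neutrophil-like cells 28.8% (17.1 to 43.1%) and monocyte and dendritic-like cells 31.4% (19.1 to 45.9%). Replicate 4 lay within the intervals of the last 2 classes and replicates 3 and 5 above them. In 18 macrophage-like cells the share was 44.4% (21.5 to 69.2%) and in 10 skeletal muscle-like cells 50% (18.7 to 81.3%). Both of these wide intervals held replicates 3, 4 and 5, so the sorted share was not set apart from these classes. In 9 plasma cell-like and 8 megakaryocyte-like cells the shares were lower, at 22.2 and 12.5%. For Car1 the thinned share was 14.5% (11.98 to 17.4%) in micro-dissected cells and 0 of 245 in sorted cells, which allows a share of up to 1.22% of cells with a tag at this depth by 3 counts of the total, and up to 1.49% by the exact interval. Intervals and floors cover counting error only.

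In micro-dissected cells most transcripts of both genes lay in 2 sets of cells, with unlike shares for Car1 and Car2. Cells were clustered with Car1 and Car2 left out, and clusters were named from fixed markers. Car1 was highest in an unnamed cluster of 69 cells in 14 libraries, led by Mt2 (a metallothionein), Aldh1a7 and Minpp1 (an inositol phosphatase), here called the Minpp1-led cluster. It held 9.76% of micro-dissected cells and 74.2% of Car1 transcripts, while 166 erythroblast-like cells in 15 libraries, which were 23.5% of cells, held 14.5%. Of Car2 transcripts, the Minpp1-led cluster held 37.4% and erythroblast-like cells 47.5%. All other micro-dissected cells, 472 in number, held 11.3% of Car1 and 15.1% of Car2 transcripts.

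Levels by class were set in CPM of non-globin transcripts, because globins took 1.78% of transcripts in the Minpp1-led cluster and 19.2% in erythroblast-like cells. On that scale Car1 stood at 1978 CPM (counting interval 1840 to 2125) in the Minpp1-led cluster and 585 CPM (496 to 690) in erythroblast-like cells. Car2 stood at 5265 CPM (5037 to 5500) in the Minpp1-led cluster and 10119 CPM (9730 to 10519) in erythroblast-like cells. The order of the clusters was thus opposite for the 2 genes. In 9 libraries with at least 3 cells of both, Car1 was higher in the Minpp1-led cluster in 9 of 9, with means of 2012 ± 1244 CPM in that cluster and 421 ± 351 CPM in erythroblast-like cells (SD, n = 9). Car2 was lower in the Minpp1-led cluster in 9 of 9, with means of 5665 ± 1913 and 10403 ± 2406 CPM. Slc4a1 was also lower in it in 9 of 9, with means of 1355 ± 1038 and 8477 ± 2090 CPM. The sum of the erythroblast markers other than globins was 8293 non-globin CPM in the Minpp1-led cluster and 36000 in erythroblast-like cells, and Slc4a1 is among those markers. None of them was among the 10 leading genes of the Minpp1-led cluster, and a second unnamed cluster had a like sum, 7902 non-globin CPM. Of the fixed marker lists, that of erythroblasts had most members raised in the Minpp1-led cluster (6), too few for a name. At a minimum of 2000 transcripts the same rule named the Minpp1-led cluster erythroblast (68 cells, 13 markers raised), so its separation from that class depends on the setting. Median depth was 4024 transcripts in the Minpp1-led cluster and 1595 in erythroblast-like cells. Car1 was found in 71.01% of 69 cells of the Minpp1-led cluster and 18.2% of 148 erythroblast-like cells when each was thinned to 1000 tags, globins included, so the order was the same at an equal number of tags.

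Granulocytic classes had little of either gene. Car1 stood at 20.2 non-globin CPM in 68 promyelocyte-like cells, 36.3 in 145 myelocyte-like cells, 65.04 in 56 mature neutrophil-like cells and 52.9 in 47 eosinophil-like cells. Car2 in the same classes stood at 138, 264, 425 and 129 non-globin CPM. Over these 316 granulocytic cells Car2 transcripts numbered 1.86 times those of Slc4a1, against 4.52 times in the Minpp1-led cluster and 1.25 times in erythroblast-like cells, and RNA from other cells in these wells was not tested as a source. In 8 megakaryocyte-like cells Car1 was at 0 and Car2 at 49.2 non-globin CPM, from 6 transcripts. Macrophage-like cells, 18 in number, had 953 non-globin CPM of Car2 and 38.02 of Car1, with 615 of Slc4a1. Skeletal muscle-like cells, 10 in number, had 1247.5 non-globin CPM of Car2 and 85.6 of Car1, with 1310.1 of Slc4a1. Both Car2 values came with Slc4a1 at a like level, unlike in sorted HSC. The Car1 value of monocyte and dendritic-like cells, 162 non-globin CPM, came from 4 of 51 cells, of which 1 gave 15 tags. The second unnamed cluster, of 60 cells from 5 libraries, had 241 non-globin CPM of Car1 and 2278 of Car2, with 1439 of Slc4a1 and a globin share of 6.81%.

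**Figure D2:**
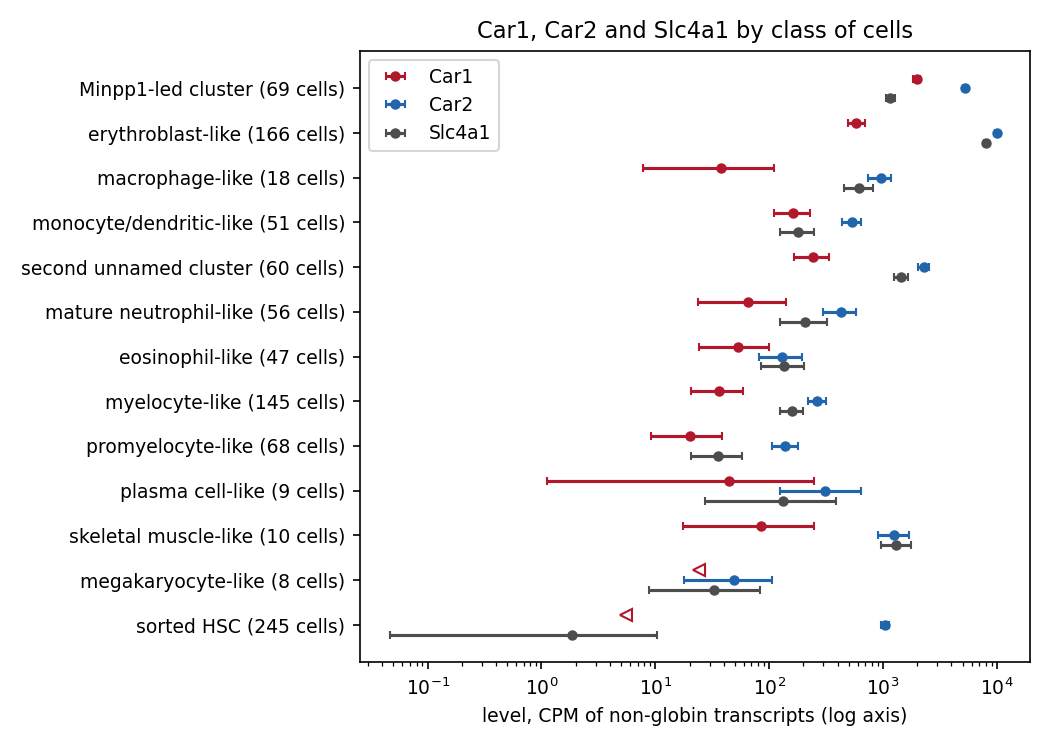
Pooled levels of Car1, Car2 and Slc4a1 in classes of micro-dissected cells and, in the lowest row, in sorted HSC, in CPM of non-globin transcripts on a log axis. Points are sums over all kept cells of a class, bars are exact Poisson intervals for counting error, and open triangles mark the floor of 3 transcripts where a gene had none. Car1 peaked in the Minpp1-led cluster at 1978 CPM and Car2 in erythroblast-like cells at 10119 CPM.

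Along the globin share the 2 genes took different courses. Globin mRNA accumulates as erythroblasts mature, so micro-dissected cells were placed in bins of under 1%, 1 to 10%, 10 to 30% and 30% or more of transcripts, with 396, 127, 157 and 27 cells. In that order Car1 stood at 267, 1209, 371 and 172 non-globin CPM. Car2 stood at 664, 4155, 8291 and 13185. Slc4a1 stood at 92.9, 1714, 6616 and 11250. Car1 thus peaked at a globin share of 1 to 10%, while Car2 and Slc4a1 were higher in each bin than in the one before. The last Car1 value rests on 5 transcripts in 4 cells. Without the deepest 5% of cells the values under 1% were 144 for Car1 and 362 for Car2, and those at 1 to 10% were 1053 and 4257. The bins depend on the Beta-s row. Without it, an alternative chosen after seeing the data, no cell reached 10%, and Car1 stood at 422 under 1% and 457 at 1 to 10%, so that its peak was not seen on those bins, while Car2 stood at 1604 and 8952.

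The libraries mostly followed this order. In libraries with at least 3 cells in both bins, Car1 was higher at 1 to 10% than under 1% in 12 of 13, with means of 1291 ± 1027 and 198 ± 240 non-globin CPM. It was lower at 10 to 30% than at 1 to 10% in 11 of 12, with means of 298 ± 242 and 1245 ± 1098. Car2 was higher at 1 to 10% than under 1% in 13 of 13, with means of 3994 ± 1376 and 552 ± 415, and higher at 10 to 30% than at 1 to 10% in 12 of 12, with means of 8820 ± 2593 and 3895 ± 1567 (each SD over the same libraries). Only 3 libraries had at least 3 cells at 30% or more. In those Car2 averaged 14579 ± 5712 and Car1 145 ± 251 non-globin CPM, Car1 being 0 in 2 of them. Median depth was lower in each bin than in the one before, at 2926, 2406, 1708 and 1428 transcripts per cell. Thinned to 1000 tags, Car1 was found in 6.17, 37.8, 17.6 and 5.88% of the cells of the 4 bins and Car2 in 22.1, 75.6, 98.0 and 100%. The Car2 share cannot show a difference between the last 2 bins, where nearly every cell had a tag, and its mean thinned tags per cell were 0.478, 3.83, 7.98 and 11.5. Thinning counted globin tags, so the non-globin tags left per cell still differed between bins.

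**Figure D3:**
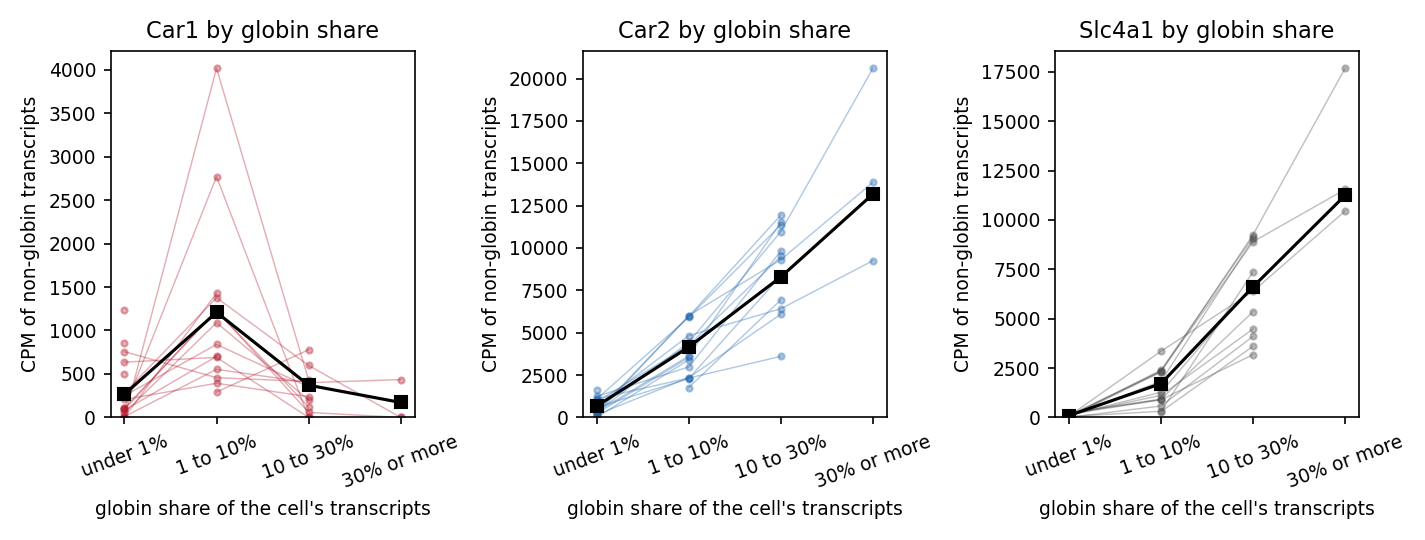
Levels of Car1, Car2 and Slc4a1 by globin share, in CPM of non-globin transcripts. Thin lines join values of 1 library in bins where it had at least 3 cells, and black squares are sums over all cells of a bin. Car1 is highest at 1 to 10% (1209 CPM) and Car2 and Slc4a1 at 30% or more (13185 and 11250 CPM).

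The bin under 1% held most granulocytic cells, but also cells of the Minpp1-led cluster with nearly no globin. Its 23 cells with a globin share under 1% had 1919 non-globin CPM of Car1, 4256 of Car2 and 234 of Slc4a1. Its 44 cells at 1 to 10% had 2065, 6483 and 2292. Car1 was therefore at a like pooled level in both, while Car2 and Slc4a1 were higher in the second. Median depth was 9311 transcripts in the 23 cells and 3346 in the 44, and the part of depth was not tested. Car2 was found in all 69 cells of the cluster and Car1 in 65. Within erythroblast-like cells Car1 stood at 1616, 405 and 191 non-globin CPM in 18 cells at 1 to 10%, 122 cells at 10 to 30% and 26 cells at 30% or more. Car2 in the same cells stood at 6677, 10375 and 13849.5. Car1 transcripts per Car2 transcript thus numbered 0.451 and 0.318 in the first 2 bins of the Minpp1-led cluster, and 0.242, 0.0388 and 0.0138 in the 3 bins of erythroblast-like cells.

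**Figure D4:**
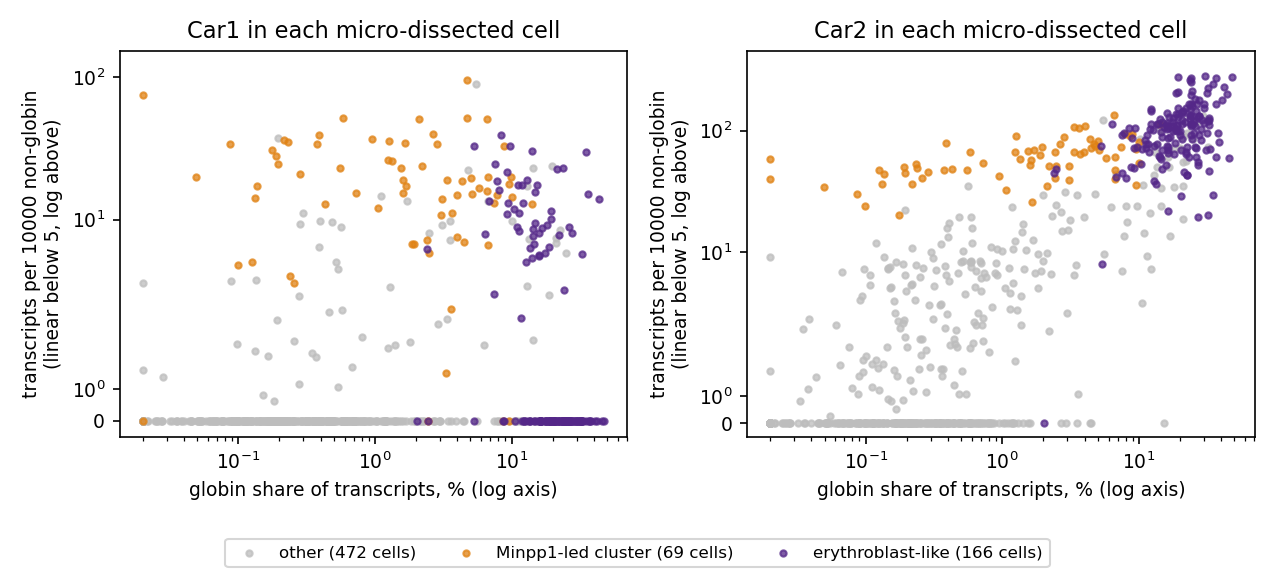
Car1 (left) and Car2 (right) in each of 707 micro-dissected cells, as transcripts per 10000 non-globin transcripts (linear below 5, log above), against the cell's globin share in % (log axis, with shares under 0.02% drawn at 0.02%). Colours mark the Minpp1-led cluster (69 cells), erythroblast-like cells (166) and all others (472). Cells of the Minpp1-led cluster have Car1 and Car2 over a wide range of low globin shares, and erythroblast-like cells at high globin shares often have no Car1 while their Car2 is high.

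Few cells carried most of the Car1. The 20 cells with most Car1 held 53.7% of its transcripts, came from 11 libraries and had 12 to 59 Car1 tags each. Of these, 17 belonged to the Minpp1-led cluster. Their globin share ran from 0.0494 to 9.67%, with a median of 0.836%, and their Slc4a1 from 0 to 29 tags. They were ranked by tags and not by level. Their totals ran from 1693 to 20500 transcripts, against a median of 2272 over micro-dissected cells, and the part of depth was not tested. The cell with 59 Car1 tags, of micro-dissected replicate 7, had 47 Car2 tags and no Slc4a1 tag at a globin share of 4.76%.

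Car1 exceeded Slc4a1 in a minority of cells. Of 409 micro-dissected cells with a transcript of either gene, 66 (16.1%, exact interval 12.7 to 20.1%) had more Car1, 327 more Slc4a1 and 16 as much of both. By globin share, from low to high, 41, 24, 1 and 0 cells had more Car1, which is 32.5, 23.3, 0.654 and 0% of the cells with either gene. In the Minpp1-led cluster they were 37 of 68, and among erythroblast-like cells 2 of 164. Thinned to 1000 tags, 44 of 305 cells (14.4%) had more Car1. Of sorted HSC none did, since Car1 was at 0 and Slc4a1 had its 1 transcript.

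Across the 707 micro-dissected cells, which share libraries and depth, Spearman's rho was 0.79 between Car2 and globin share, 0.22 between Car1 and globin share and 0.39 between Car1 and Car2. Among the 311 cells with a globin share of at least 1%, Car2 had a rho of 0.67 with globin share and Car1 one of -0.29. In single libraries with at least 10 such cells the rho was positive for Car2 in 12 of 12 (0.33 to 0.89) and negative for Car1 in 11 of 12 (-0.77 to 0.10). In these 311 cells Car1 also had a rho of 0.31 with the cell's total, and the part of depth in the negative value was not tested.

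Micro-dissected replicate 18, which was in its own deposited file and not in the table, gave a further library. It held 83 kept cells of 96 wells. From low to high globin share, with 21, 30, 29 and 3 cells, Car1 stood at 73.5, 410, 102 and 875 non-globin CPM. Car2 stood at 296, 1712, 5668 and 8387. Slc4a1 stood at 135, 1775, 8274 and 12447, above Car2 in each bin from 1% globin upward, unlike in the pooled bins of the other libraries. Car2 was higher in each bin than in the one before, and Car1 again was higher at 1 to 10% than in the bins on either side. The last Car1 value rests on 2 transcripts in 1 cell, with a counting interval of 106 to 3149. Among its 62 cells with a globin share of at least 1%, rho with globin share was 0.76 for Car2 and -0.066 for Car1. Car1 exceeded Slc4a1 in 1 of 67 cells with either, against 66 of 409 in the table. The 2 sources are not alike, which limits this comparison. For the same 17 libraries, the per-library counts gave 429, 150, 113 and 4 cells in the 4 bins, against 396, 127, 157 and 27 in the table.

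The genes whose levels over micro-dissected cells were most like those of Car1 and Car2 were ranked among 4240 genes. Lists of 10 from so many can differ for any 2 genes, so no separation is read from them. For Car1, among genes found in at least 10% of the 707 cells, the highest rho was that of Minpp1 (0.48), which was also the erythroid list member with its peak at 1 to 10% globin. Next came Tmem14c, a mitochondrial protein needed for haem synthesis (0.48), Hebp1, a haem-binding protein (0.44), Ccne1, cyclin E1 of the entry into S phase (0.44), the ribosomal protein Rps2 (0.43), Tmem9 (0.42), the acid phosphatase Acp5 (0.42), the replication clamp Pcna (0.42), Cldn13, a claudin of mouse erythroid cells (0.41), and the ribosomal protein Rplp1 (0.41). Each was positive in at least 14 of 15 libraries. Car2 stood at rank 20 of the 4240 genes by rho with Car1, with 0.39. For Car2 the values were higher: the peroxiredoxin Prdx2 had 0.79, the protease Ctse 0.79, the Rh blood group protein Rhd 0.77, the erythroid nuclear protein Hemgn 0.76, the haem synthesis enzymes Fech 0.75 and Cpox 0.73, the water channel Aqp1 0.75 and Slc4a1 0.74. Each of these was positive in 15 of 15 libraries. Car1 stood at rank 132 of the 4240 genes by rho with Car2, so each of the 2 genes ranked high for the other. In sorted HSC the highest values with Car2 were weak. Kit, the stem cell factor receptor, had 0.32 and Zfp36l2, an mRNA-decay protein, 0.29, each positive in 3 of 3 libraries, ahead of B2m (0.27), Tgfbr3 (0.27) and Malat1 (0.26), each positive in 2 of 3, over 245 cells that share libraries and depth.

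Most erythroid genes followed Car2 rather than Car1 along the globin share. Of 32 genes on an erythroid list, 31 were in the table, and 23 of them had their highest level at a globin share of 30% or more, as Car2 did. A further 5 (Gata1, Tal1, Epor, Alad and Cpox) peaked at 10 to 30%, 2 (Mt1 and Mt2) under 1%, and Minpp1 alone at 1 to 10%, as Car1 did. Over all 6202 genes with at least 50 transcripts, 22.3% peaked at 30% or more and 21.8% at 1 to 10%. Prdx2, the list member with the highest level, had 350, 2274, 5630 and 7314 non-globin CPM in the 4 bins, and Alas2, the first enzyme of haem synthesis in erythroid cells, had 38.2, 691, 3184 and 7116. Minpp1 had 141, 458, 159 and 34.3. Cpox, also among the 5 highest members, had 165 non-globin CPM under 1% and 2587 at 10 to 30%.

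No other carbonic anhydrase approached these levels. Car3, the form of muscle and fat, had 61 transcripts in micro-dissected and 6 in sorted cells. The mitochondrial forms Car5a and Car5b had 49 and 33 in micro-dissected cells, against 17 and 13 in sorted cells. Car9, a membrane form, had 8 and 7, and cytosolic Car13 had 14 and 4. Car8, which lacks the enzyme activity, had 1 and 0, Car7 had 0 and 3, Car11 0 and 3, and Car12 0 and 1, in micro-dissected and sorted cells in turn. Car4, Car6, Car10, Car14 and Car15 had no transcript in either. In the GENCODE vM21 annotation of mm10, Car1 lies on chromosome 3 from 14766216 to 14808368 on the minus strand and Car2 from 14886273 to 14900770 on the plus strand, 77.9 kb apart. Car3, between them at 14863512 to 14872523, and Car13, at 14641727 to 14663002, share the cluster but not the level. Slc4a1 lies on chromosome 11 from 102348824 to 102366203.

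Of a list of 13 genes of carbon dioxide, bicarbonate and gas transport, 6 were found in at least 5% of kept cells. Besides Slc4a1, the ammonium and gas channel Rhag had 36.7, 304, 558 and 963 non-globin CPM over the 4 globin bins, Rhd 75.4, 705, 2201 and 2558, and the lactate transporter Slc16a1 38.2, 139.5, 384 and 619. Aqp1 had 186, 1137, 2281 and 2253. Rhag, Rhd and Slc16a1 thus followed the order of Car2, and Aqp1 was about level over the last 2 bins.

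Clump membership allowed a test that the choice of the genes had not used. The 166 erythroblast-like cells lay in 125 clumps, of which 36 held at least 2. In 9 libraries, levels were compared between erythroblast-like cells of the same clump (46 pairs) and of different clumps (1426 pairs), as the absolute difference of log2(transcripts per 10000 non-globin transcripts + 1). For Car1 the mean difference was 1.45 ± 1.30 within a clump and 1.49 ± 0.78 between clumps, and for Car2 it was 1.05 ± 0.78 and 0.86 ± 0.30 (SD, n = 9 libraries). Within minus between was -0.038 ± 1.65 for Car1, lower within clumps in 6 of 9 libraries, and 0.19 ± 0.62 for Car2, lower in 4 of 9. Neither passed the exact sign-flip permutation test over libraries, 2-sided (p = 0.957 for Car1 and 0.559 for Car2, each with an adjusted p of 0.957 over 4 measures, where 9 libraries allow a smallest p of 0.00391). Slc4a1 (0.41 ± 1.003, p = 0.234, adjusted p = 0.938) and globin share (0.045 ± 0.49, p = 0.75, adjusted p = 0.957) did not pass the same exact permutation test. Partners were thus not detectably more alike in either gene than other erythroblast-like cells of the library. With so few pairs this does not show that they did not differ. For Car2 the mean was -0.0089 without micro-dissected replicate 11, and for Car1 it was 0.026, 0.30, 0.071 and 0.090 without micro-dissected replicates 11, 12, 14 and 16. For Slc4a1 it was 0.099 without micro-dissected replicate 4.

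Erythroblast-like cells were also split by the class of the kept cells in their clump. In 8 libraries, 75 cells had an erythroblast-like partner and 43 had only partners of other classes, and transcripts were summed per library and kind. Cells with no kept partner were left out. Partners in the 839 micro-dissected wells below 1000 transcripts were not seen, so some of the 43 may have had an erythroblast-like one. Partners of the unnamed clusters, the Minpp1-led one included, counted as other, so the split is not one of erythroid against non-erythroid partners. From replicate 4 and then 10 to 17 without 12, summed Car1 transcripts were 3, 19, 0, 4, 13, 4, 9 and 38 in cells with an erythroblast-like partner and 0, 0, 1, 0, 1, 0, 5 and 8 in cells with other partners. These sum to 90 transcripts with an erythroblast-like partner and 15 with other partners. Without replicate 10, 16 or 17 Car1 was too low to be tested. Car1 averaged 689 ± 495 non-globin CPM with an erythroblast-like partner and 157 ± 230 with other partners (SD, n = 8), higher in 6 of 8 libraries. Car2 summed to 1267 and 557 transcripts and averaged 10651 ± 1406 and 10458 ± 2390 non-globin CPM, higher in 5 of 8. The globin share was 17.6 ± 2.57% with an erythroblast-like partner and 20.9 ± 6.22% with other partners, and its part in the Car1 values was not tested.

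In edgeR's quasi-likelihood test with the library as a block, Car1 had a log2 fold change of 1.49 ± 0.62 (approximate SE) and Car2 one of 0.12 ± 0.15. Their Benjamini-Hochberg adjusted p over 260 genes was 0.407 and 0.834, and unadjusted p was 0.0169 and 0.446. Of the 260 genes tested, 0 were called at an adjusted p of 0.05 (0%), with 21 at an unadjusted p under 0.05. DESeq2 called 0 of 8836, with 38 at an unadjusted p under 0.05, and gave Car1 1.61 ± 0.60 (SE, adjusted p = 0.9998). The Car1 difference therefore did not pass the correction. Slc4a1 had -0.036 ± 0.17 (adjusted p = 0.967, edgeR).

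**Figure D5:**
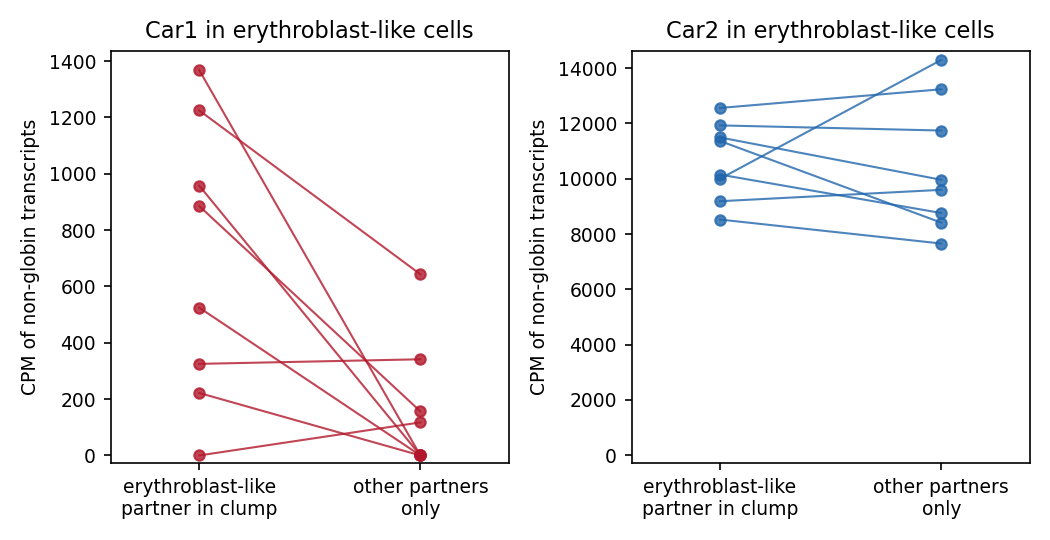
Car1 (left) and Car2 (right) in erythroblast-like cells with an erythroblast-like partner in their clump and with other partners only, in CPM of non-globin transcripts. Only kept cells counted as partners, and those of unnamed clusters counted as other. Each line joins the 2 sums of 1 library (n = 8). Car1 is higher with an erythroblast-like partner in 6 of 8 libraries and Car2 in 5 of 8, and neither difference passed the adjusted test.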

How the data were processed

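The deposited table holds expected counts, the authors' estimated transcript counts per gene and cell after tag correction. Per the submitters' processing notes, reads were aligned with BWA 0.6.2-r126 to mm10. Later steps are not stated there. The authors' per-library files hold estimated counts of the same kind, but their values differ from those of the table. Over 17 micro-dissected libraries Car2 averaged 1791 CPM in them and 2176 CPM in the table. Per the labels' protocols, micro-dissected libraries were run on a NextSeq500 and sorted ones on that or a HiSeq2500.

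Globin share summed all rows named Hba- or Hbb- and Beta-s, which RefSeq lists as a synonym of Hbb-bs and which held 92.2% of globin transcripts. Cells were clustered with scanpy 1.11.5 (2000 variable genes, 30 components, 15 neighbours, Leiden resolution 1) without Car1 and Car2. How clusters are named was decided with the clusters in view. Clump numbers come from the table's column names and are not explained by the labels. No doublet caller was run on cells placed singly in wells. Whole tags were recovered by undoing the correction for 256 possible tags (99.9999% within 0.01 of a whole number); they were used for tags per cell and for thinning, by total tags with globins included. Transcript numbers, levels and their counting intervals rest on sums of the deposited values, rounded where printed as numbers of transcripts. All libraries use 1 set of well barcodes, so these were not compared; 0 kept cells were identical.

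Sums were rounded and tested with edgeR 4.0.16 (TMM, filterByExpr, robust fit, Benjamini-Hochberg at 0.05) in R 4.3.3, with DESeq2 1.42.0 as an alternative. Checked on simulated counts for the partner comparison (260 genes), edgeR recovered 67.7% of genes changed by 1 and 98.1% of those changed by 2 on the log2 scale. It also called 2 of 142 unchanged genes. The simulated counts had the same dispersion for every gene and no difference between libraries. These shares therefore do not tell what size of Car1 difference the test could find. The SE is approximate (log2 fold change divided by the root of F). The members and gene lists were chosen with earlier results of these data known. Named genes were the 10 most like Car1 and Car2 in micro-dissected cells, 5 in sorted cells, other carbonic anhydrases with a transcript, transport genes in at least 5% of cells and the 5 erythroid genes with the highest mean level; other erythroid genes named beside small counts were picked with their values seen. Micro-dissected replicate 18 entered from its own file only; replicate 2 of the sorted HSC is not analysed here. Some genes that the naming rule picks are not reported here.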

Additional observations from a re-analysis of the deposited data

Results flagged for a closer look

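Of 13 groups of 4 to 10 library values, 3 had a value far from the others by Dixon's criterion, where chance marks about 1 in 20. Car1 in the Minpp1-led cluster stood at 4905 non-globin CPM in micro-dissected replicate 7, against 793 to 2506 in the other 8 libraries. The difference in Car2 between clump partners and other pairs was 1.80 on the log2 scale in micro-dissected replicate 11, against -0.31 to 0.23 in the others. The same difference in Slc4a1 was 2.92 in micro-dissected replicate 4, against -0.32 to 0.67 in the others.

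Wells below 1000 transcripts entered no comparison. In 839 micro-dissected wells of that kind Car1 had 69 transcripts, and in 124 sorted wells it had 0, with 1002 and 31 transcripts of Car2.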

How the results depend on the processing

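No paired analysis was possible because replicates were numbered by accession only, so that no number ties a micro-dissected to a sorted library. Of the alternatives run, 163 values were counted as kept, 12 as moved further and 16 as changed in sign. Tested values were kept if direction and side of the threshold stayed, and untested levels if they moved by at most 1 SD. The Car2 ratio was kept within its counting interval, and the share of cells with Car1 above Slc4a1 within its exact interval. Sorted Car1 was at 0 throughout and was counted as kept. Except where a setting's own construction shows it, the cause was not tested. The Car2 ratio of micro-dissected over sorted cells was 1.59 at a minimum of 2000 transcripts, 3.004 as a mean over cells, and 1.78 to 2.36 with each sorted library left out. At Leiden resolution 2, where the erythroblast-like class took in 206 cells and the Minpp1-led cluster 28, erythroblast-like Car1 averaged 1015 and Car2 8343 non-globin CPM, against 446 and 10884 at resolution 1; Car1 was still higher in the Minpp1-led cluster in 5 of 5 libraries, 4 of 4 at 2000 transcripts and 9 of 9 without the deepest 5% of cells, while Car2 was higher in it in 1 of 4 at 2000 transcripts. At 2000 transcripts the naming rule called the Minpp1-led cluster erythroblast, and it was kept apart from the other cells of that name for these counts. Without the Beta-s row, an alternative chosen after seeing the data, no cell reached 10% globin, Car2 stood at 1604 non-globin CPM under 1% and 8952 at 1 to 10%, and Car1 at 422 and 457. For clump partners, within minus between turned to -0.34 for Car2, -0.18 for Slc4a1 and -0.30 for globin share among cells of at least 1% globin; to -0.57 and -0.32 for Car2 and globin share at a minimum of 500 transcripts (each adjusted p = 0.0779, sign-flip permutation test); to 0.069 for Car1 with pairs at most 12 wells apart; and, with the Minpp1-led cluster added after seeing the data, to -0.086 for Car2, -0.37 for Slc4a1 and -1.04 for globin share, the last with an adjusted p of 0.0117 in 10 of 11 libraries (exact sign-flip permutation test). With 1 library left out it ranged from -0.41 to 0.30 for Car1, -0.0089 to 0.25 for Car2, 0.099 to 0.51 for Slc4a1 and -0.072 to 0.086 for globin share. In the partner comparison 0 genes were called under any alternative; adjusted p ranged from 0.393 to 0.9998 for Car1, which was too low to be tested in 4 of 13 settings, and from 0.715 to 0.9998 for Car2. Sorted HSC replicate 1 gave 1 Car2 transcript, and with 27 cells the highest globin bin limits Car1.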
